A study of Arabidopsis thaliana with 24 samples.

Results

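ECS1 (AT1G31580) and MSRB6 (AT4G04840) are genes of Arabidopsis thaliana whose signals were close to 0 in dark-grown wild type (WT) seedlings and high in seedlings kept in blue light. They are measured by 1 probe set each, and are 2 of the 13513 probe sets with 1 annotated gene among the 22810 on the Affymetrix array. Both were chosen by their signals on the dark and the blue light WT arrays, so the values of these 4 arrays are given as a description with no test. ECS1 lies on chromosome 1 and MSRB6 on chromosome 4.

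The series holds 24 arrays of RNA from 10-day-old seedlings in the Columbia background, kept at 22 °C. Seedlings were WT, the atmyc2 mutant, the cop1-6 mutant or the atmyc2 cop1-6 double mutant. Each genotype was grown in constant darkness, in constant blue light of 35 µmol per s per m2, or in the same blue light with abscisic acid (ABA) at 0.5, a concentration whose unit the labels write as µm. Each of the 12 groups has 2 arrays, described as biological replicates. Whole seedlings were used, so a signal is an average over all organs, and fewer cells of a type and less RNA per cell cannot be told apart. The atmyc2 allele is not stated in the labels, each mutation is represented by 1 line, and the transcripts of AtMYC2 and COP1 were not analysed here because no probe set is paired with them in the annotation used.

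As background, COP1 is an E3 ubiquitin ligase that marks light-response transcription factors such as HY5 for degradation in darkness, so cop1 mutants show features of light-grown seedlings in the dark. cop1-6 is a viable partial loss-of-function allele. AtMYC2 is a transcription factor of the basic helix-loop-helix family, known from jasmonate, ABA and blue light signalling, and ABA is the hormone of seed dormancy and drought responses. ECS1 encodes a small cell wall-associated protein that came to notice in work on resistance to Xanthomonas campestris. MSRB6 encodes a B-type methionine sulfoxide reductase, an enzyme that repairs oxidised methionine by reducing its R form, usually with electrons from thioredoxins.

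Signals are the deposited intensities in arbitrary units. Trimmed means were 100.01 on every array, and array medians ran from 26.7 to 41.3. A signal of 19.1, the 40th percentile of all values, is called the dim level here, and values under it have no reliable order. Fold changes are differences of log2(signal + 1) between group means, with the standard error (SE) of a limma fit over all 24 arrays, and where a group of ECS1 or MSRB6 lies under the dim level a second value with 19.1 as the pseudocount is given. Of 25 comparisons, 19 hold no dark or blue light WT group and were tested. Their SE and p-values still draw on the spread over all 24 arrays, these WT arrays included. Their p-values are adjusted by the Benjamini-Hochberg method over 16196 probe sets. ECS1 and MSRB6 together passed 13 of 38 such tests at 0.05. Between comparisons, the share of all probe sets called ran from 0% to 34.4% higher and from 0% to 23.5% lower. These shares hold a single direction each, while the 13 count both directions, so they are not directly comparable. The tests share arrays, so they are not separate outcomes.

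The 2 cop1-6 arrays with ABA stood apart from each other. Their correlation over all tested probe sets (r = 0.914) was the lowest of the 12 replicate pairs, the highest being 0.986. Replicate 1 was closest to a double mutant array with ABA (r = 0.973) and replicate 2 to a WT array with ABA (r = 0.942). Several results that rest on this pair are given below with and without each array, and some others only as a range over single arrays left out. Control signals also moved with the groups. The mean of the poly-A control probe sets was 923 to 1023 on the dark WT and atmyc2 arrays, 223 to 368 on the dark cop1-6 and double mutant arrays, 4.47 to 13.3 on the blue light arrays and 85.3 to 137 on those with ABA, and the 25S rRNA signal was 769.5 to 2762.5 with ABA against 4.6 to 189.9 on the other arrays. The log2 ratio of the 3′ to the 5′ GAPDH control signal was 0.839 to 1.26 on the dark WT and atmyc2 arrays and 0.254 to 0.846 on the others. Their part in the results was not tested.

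ECS1 was nearly silent in darkness as long as COP1 was intact, and reached its highest signals in blue light. In dark WT its signals were 0.4 and 1.4, and in blue light WT 2956.5 and 1826.7. The dark atmyc2 arrays had 3.9 and 1.3, and the blue light atmyc2 arrays 1508.9 and 1622.5. All 4 dark arrays of these genotypes were below the dim level, and all 4 blue light arrays were more than 1500. In WT the log2 fold change was 10.31 ± 0.37 (SE), or 6.87 with the dim level as pseudocount, as a description.

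The same light response in atmyc2, from group means that the choice by WT signals did not use, was 8.87 ± 0.37, or 6.19 with the dim level as pseudocount (adjusted p = 3.48e-12). It was the 3rd highest of the 16196 probe sets tested, and the highest with the dim level as pseudocount. In that comparison 34.4% of all probe sets were higher in blue light. Earlier results of the mutant arrays were also known when the 2 genes were chosen, so the rank of ECS1 is not independent of the choice.

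MSRB6 showed the same switch at a smaller fold. Its signals were 1.4 and 3.6 in dark WT and 296 and 271.1 in blue light WT, a described log2 fold change of 6.42 ± 0.26, or 3.81 with the dim level as pseudocount. In atmyc2 they were 8.3 and 6.6 in darkness against 275.4 and 187.8 in blue light. The dark and blue light arrays of each genotype were far apart, and the dark ones were below the dim level. The atmyc2 light response was 4.76 ± 0.26, or 3.22 with the dim level as pseudocount (adjusted p = 2.92e-11), and ranked 119th from the highest, or 176th with the dim level as pseudocount.

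**Figure D1:**
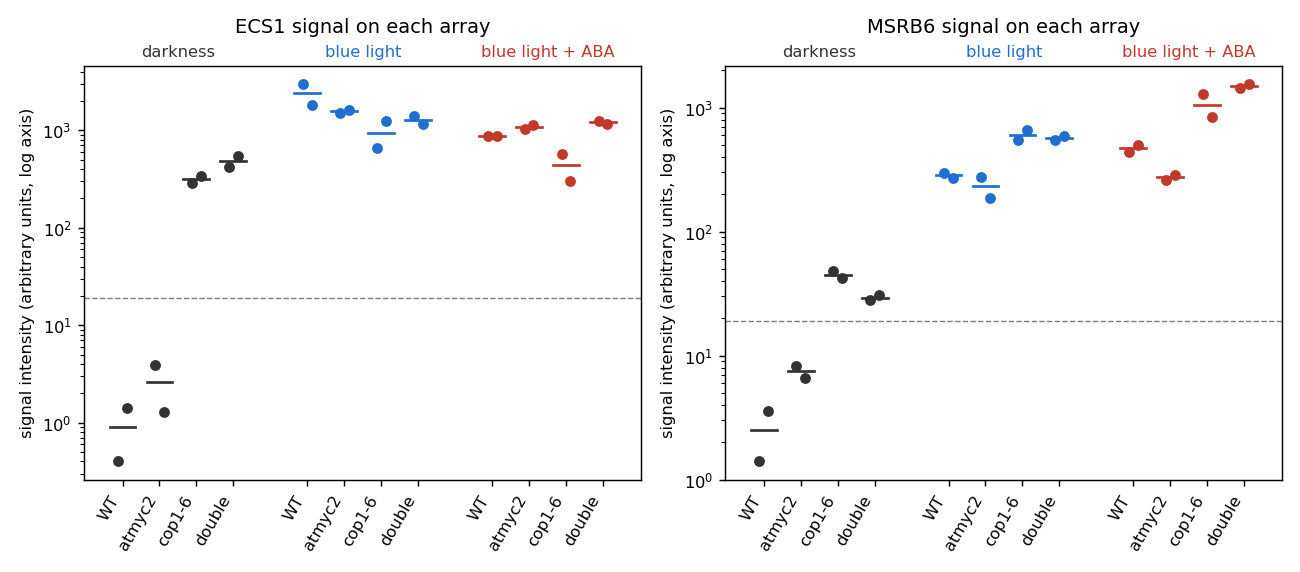
Signal intensity (arbitrary units, log axis) of ECS1 and MSRB6 on each of the 24 arrays, by genotype in darkness, blue light and blue light with ABA; points are arrays, bars are means of 2, and the dashed line is the dim level of 19.1. ECS1 was 287.4 or higher on all 4 dark arrays that carry cop1-6 and 3.9 or lower on the other 4 dark arrays, while MSRB6 was between 28 and 48 on the former and at most 8.3 on the latter.

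The cop1-6 mutation raised ECS1 in darkness to a level well above the dim level. Dark cop1-6 arrays had ECS1 signals of 287.4 and 343.5, and dark double mutant arrays 425.6 and 549.5. These means were 16.5 and 25.5 times the dim level. No dark cop1-6 or double mutant array came near the 0.4 to 3.9 of the dark WT and atmyc2 arrays. cop1-6 was above WT by 7.43 ± 0.37 on the log2 scale, or 4.06 with the dim level as pseudocount, as a description.

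The double mutant against atmyc2, whose group means hold no WT array, gave a log2 difference of 7.17 ± 0.37, or 4.54 with the dim level as pseudocount (adjusted p = 5.26e-10). This was the highest of all 16196 probe sets with either pseudocount. ECS1 was chosen for its dark and blue light WT signals, with earlier results of the mutant arrays known. Its dark atmyc2 signals were below the dim level, as in dark WT, so this rank is not independent of the choice. Of all probe sets, 28.8% were higher and 16.2% lower in the double mutant in this comparison. The 2 dark groups also differ in the poly-A control signals given above, whose part in the result was not tested.

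Even so, the dark level of ECS1 in plants with cop1-6 stayed below the blue light level. The dark mean was 33.4% of the blue light mean in cop1-6, with single array ratios from 23.3% to 52.5%, and 38.0% in the double mutant, from 30.3% to 47.3%. In WT and atmyc2 it was 0.0376% and 0.166%, from signals under the dim level.

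The light response that remained was small. Blue light cop1-6 arrays had ECS1 signals of 654.9 and 1235.7, and blue light double mutant arrays 1405.4 and 1162.5. In each genotype both blue light arrays were above both dark arrays. The log2 difference was 1.51 ± 0.37 in cop1-6 (adjusted p = 0.0025; 30.6% of all probe sets were higher) and 1.4 ± 0.37 in the double mutant (adjusted p = 0.00648; 19.9% were higher). The first lost its call without blue light cop1-6 replicate 2 (1.06, adjusted p = 0.0513) and the second without dark double mutant replicate 1 (1.22, adjusted p = 0.0588).

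The light response of ECS1 in the double mutant was smaller than in atmyc2, with a log2 difference of -7.47 ± 0.52, or -4.82 with the dim level as pseudocount (adjusted p = 1.21e-07). It was the lowest value of all tested probe sets with either pseudocount, where 19.1% were lower and 8.41% higher. This value is the blue light difference between these genotypes (-0.29) minus their dark difference (7.17). It therefore mostly restates the dark difference, which rests on dark atmyc2 signals below the dim level, and is no separate result. Between the double mutant and cop1-6 the light response of ECS1 differed by -0.11 (95% confidence interval -1.22 to 0.99, adjusted p = 0.936).

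MSRB6 was also higher in darkness with cop1-6, but its signals there were only slightly above the dim level. Its signals were 48 and 41.9 in dark cop1-6, and 28 and 30.7 in the dark double mutant. The means were 2.35 and 1.54 times the dim level. The double mutant was above atmyc2 by 1.85 ± 0.26 on the log2 scale, or 0.87 with the dim level as pseudocount (adjusted p = 1.47e-05), the 953rd highest value in that comparison, or the 2074th with the dim level as pseudocount. cop1-6 against WT was 3.79 ± 0.26, or 1.57 with the dim level as pseudocount, as a description.

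The dark MSRB6 mean was 7.45% of the blue light mean in cop1-6 and 5.12% in the double mutant, against 33.4% and 38.0% for ECS1. Blue light signals were 545.6 and 660.4 in cop1-6, and 552.6 and 592.9 in the double mutant, all well above the dark arrays. The log2 light response was 3.71 ± 0.26 in cop1-6 (adjusted p = 8.1e-09) and 4.24 ± 0.26 in the double mutant (adjusted p = 2.28e-09), the 133rd and 47th highest of all tested probe sets, or the 49th and 19th with the dim level as pseudocount.

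Its light response in the double mutant against atmyc2 differed by -0.52 ± 0.36 (adjusted p = 0.301). With the dim level as pseudocount the difference was 0.39, so it has no settled direction. Against cop1-6 it differed by 0.53 (adjusted p = 0.498).

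**Figure D2:**
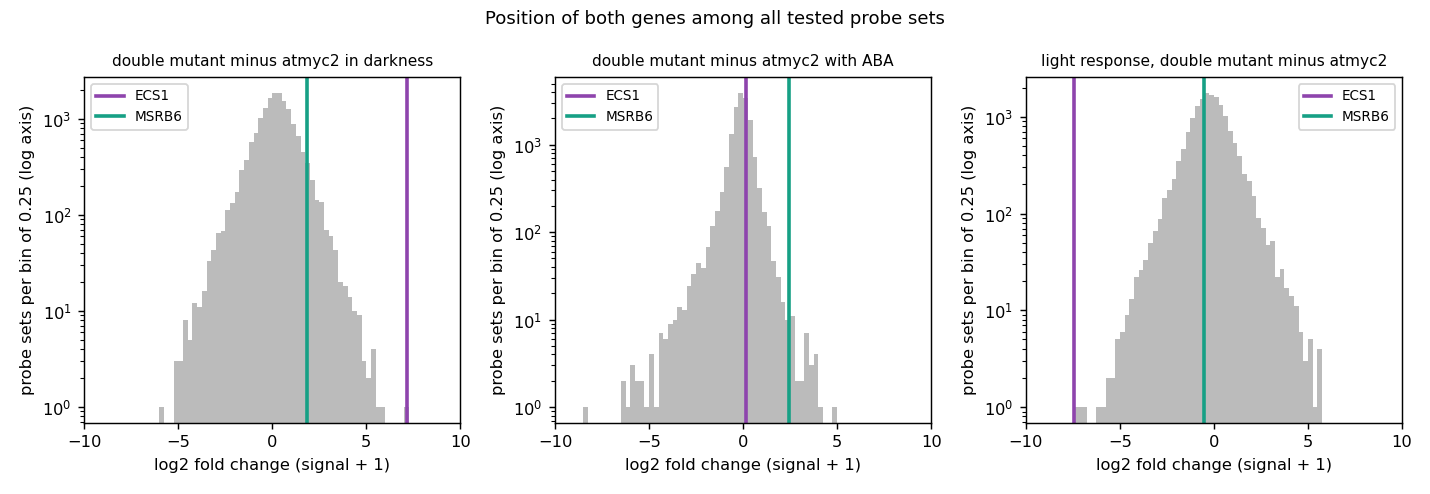
Number of tested probe sets (log axis) per bin of 0.25 in log2 fold change of signal + 1, for the double mutant minus atmyc2 in darkness and with ABA and for the light response in the double mutant minus that in atmyc2; vertical lines mark ECS1 and MSRB6. ECS1 lies at the right end of the dark comparison (7.17) and at the left end of the light response difference (-7.47), and MSRB6 lies near the right end with ABA (2.43).

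In blue light the cop1-6 arrays differed from the WT arrays in opposite directions for the 2 genes, as a description. For ECS1 the blue light cop1-6 arrays (654.9 and 1235.7) were both below the WT arrays (2956.5 and 1826.7), a described log2 difference of -1.37 ± 0.37. For MSRB6 the cop1-6 arrays (545.6 and 660.4) were both above the WT arrays (296 and 271.1), a described difference of 1.08 ± 0.26. Neither of these differences from WT was tested. The effect of cop1-6 in blue light was tested only in plants that also carry atmyc2. MSRB6 was higher in the double mutant than in atmyc2 in blue light by 1.33 ± 0.26 (adjusted p = 0.00316; 4.13% of all probe sets were higher). Leaving out blue light atmyc2 replicate 2 gave 1.05 (adjusted p = 0.0514).

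The corresponding ECS1 difference was -0.29 ± 0.37 (95% confidence interval -1.07 to 0.49, adjusted p = 0.696; 5.52% of all probe sets were lower). Its double mutant arrays (1405.4 and 1162.5) lay just below the atmyc2 arrays (1508.9 and 1622.5). An effect of cop1-6 on ECS1 in blue light was therefore not called in plants that carry atmyc2. The described difference between cop1-6 and WT was not tested.

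With ABA, MSRB6 reached the highest signals of the series, in the genotypes with cop1-6. The ABA arrays had 436.8 and 499.2 in WT, 261.2 and 287 in atmyc2, 1276.1 and 833.8 in cop1-6, and 1429.9 and 1536.1 in the double mutant. Both genotypes with cop1-6 were above both others on every array. The double mutant exceeded atmyc2 by 2.43 ± 0.26 on the log2 scale (adjusted p = 3.91e-05), a rank of 35 from the highest, where 0.969% of all probe sets were higher and 3.77% lower.

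cop1-6 exceeded WT by 1.14 ± 0.26 for MSRB6 with ABA (adjusted p = 0.013; 1.32% of all probe sets were higher). The difference was 0.84 without cop1-6 ABA replicate 1 (adjusted p = 0.142) and 1.45 without replicate 2 (adjusted p = 0.00346). Leaving out either WT array also ended the call, at 1.05 without replicate 1 (adjusted p = 0.12) and 1.24 without replicate 2 (adjusted p = 0.0858).

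Within a genotype, MSRB6 rose with ABA in the double mutant, from 552.6 and 592.9 in blue light to 1429.9 and 1536.1. The log2 difference was 1.37 ± 0.26 (adjusted p = 7.89e-04; 9.93% of all probe sets were higher). In cop1-6 it was 0.78 ± 0.26 (adjusted p = 0.051; 5.87% were higher), with 0.47 without ABA replicate 1 (adjusted p = 0.409) and 1.09 without replicate 2 (adjusted p = 0.0135).

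In atmyc2 the MSRB6 arrays with ABA (261.2 and 287) overlapped those in blue light (275.4 and 187.8), with a difference of 0.27 (95% confidence interval -0.27 to 0.80, adjusted p = 0.493; 10.7% of all probe sets were higher). In WT the ABA arrays were both higher, a described difference of 0.72 ± 0.26. The ABA response of the double mutant was larger than that of atmyc2 by 1.1 ± 0.36 without passing the test (adjusted p = 0.153; 0.272% of all probe sets were higher and 0.438% lower).

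ECS1 was not called higher with ABA in any genotype, and its mean was lower with ABA in all 4. Its ABA arrays had 870.3 and 866.8 in WT, 1021.7 and 1127.8 in atmyc2, 578.4 and 301.5 in cop1-6, and 1249.6 and 1172.9 in the double mutant. Against blue light, the ABA arrays were lower without overlap in WT, atmyc2 and cop1-6, and overlapped in the double mutant. The ABA mean was 36.3% of the blue light mean in WT, 68.6% in atmyc2, 46.5% in cop1-6 and 94.3% in the double mutant.

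The WT fall was a described log2 difference of -1.42 ± 0.37, and in the 3 mutants no ECS1 comparison of ABA with blue light passed the test. The log2 differences were -0.54 in atmyc2 (adjusted p = 0.317; 11.1% of all probe sets were lower), -1.11 in cop1-6 (adjusted p = 0.0585; 7.58% were lower) and -0.08 in the double mutant (95% confidence interval -0.86 to 0.70, adjusted p = 0.911; 13.4% were lower). The cop1-6 value was -1.57 without ABA replicate 1 and -0.64 without ABA replicate 2, the ends of the range when any of its 4 arrays was left out. The blue light cop1-6 arrays (654.9 and 1235.7) were also far apart, so the value does not depend on the ABA pair alone.

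Between genotypes with ABA, ECS1 was lower in cop1-6 than in WT by 1.05 on the log2 scale (difference -1.05 ± 0.37), without passing the test (adjusted p = 0.124; 3.53% of all probe sets were lower). That difference was -1.52 without cop1-6 replicate 1 (adjusted p = 0.0442) and -0.59 without replicate 2 (adjusted p = 0.434). The double mutant was above cop1-6 by 1.53 ± 0.37 for ECS1 (adjusted p = 0.0978; 0.0679% of all probe sets were higher), with 2.00 without cop1-6 replicate 1 (adjusted p = 0.00448) and 1.06 without replicate 2 (adjusted p = 0.851). Both differences therefore turn on which cop1-6 ABA array is kept.

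The ABA arrays differed from the blue light arrays in a further measured way. ICL, which encodes isocitrate lyase, a glyoxylate cycle enzyme and a marker of seedlings living on stored lipid, had signals of 4094 to 5484 on all 8 ABA arrays against 7.1 to 144.1 on the 8 blue light arrays. Its part in the ABA values of ECS1 and MSRB6 was not tested.

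**Figure D3:**
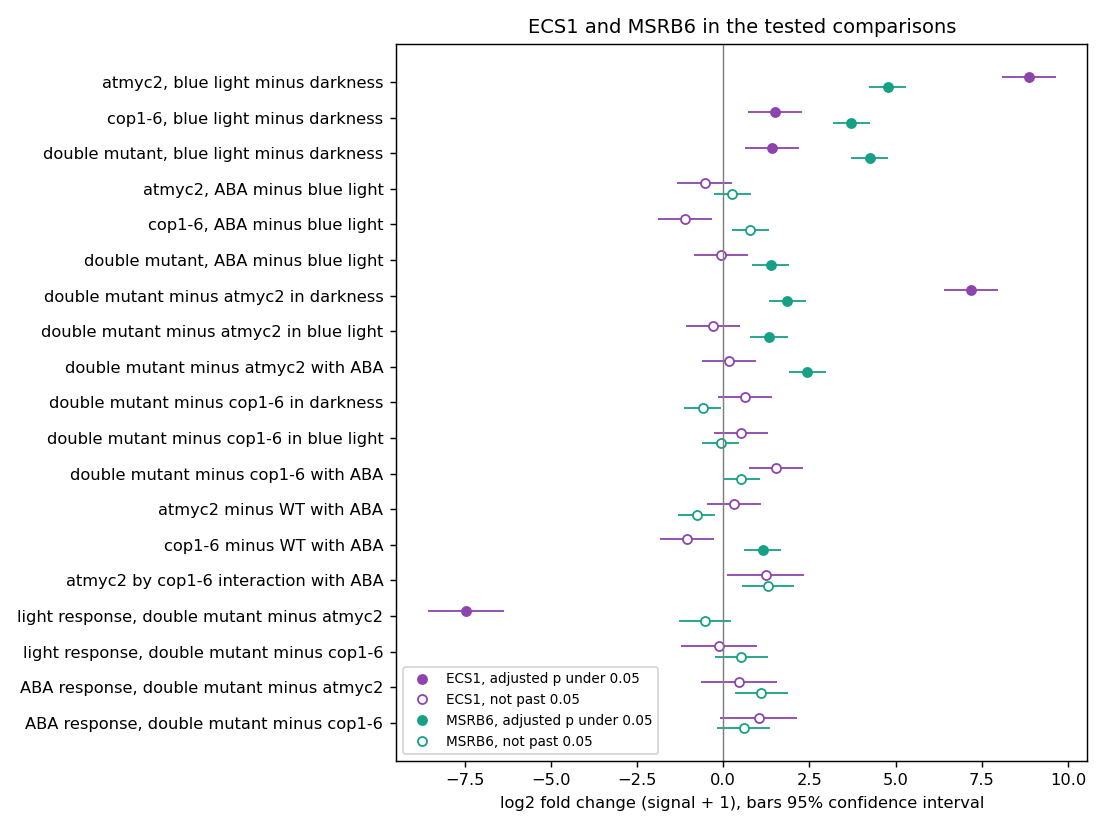
Log2 fold changes of signal + 1 with 95% confidence intervals from the limma fit, for ECS1 and MSRB6 in each of the 19 tested comparisons; filled points passed the adjusted p of 0.05 and open points did not. The light response of ECS1 was 8.87 in atmyc2 against 1.51 in cop1-6 and 1.4 in the double mutant, while that of MSRB6 was 4.76, 3.71 and 4.24.

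The atmyc2 mutation on its own could be tested against WT only with ABA, and neither gene passed there. In darkness the ECS1 signals of atmyc2 (3.9 and 1.3) and WT (0.4 and 1.4) overlapped, and the MSRB6 signals (8.3 and 6.6 against 1.4 and 3.6) did not, but all were below the dim level. In blue light atmyc2 was below WT for ECS1 by a described -0.57 ± 0.37 with no overlap, and for MSRB6 by -0.32 ± 0.26 with overlapping arrays. With ABA, where the comparison was tested, atmyc2 minus WT was 0.31 for ECS1 (95% confidence interval -0.48 to 1.09, adjusted p = 1.00) and -0.77 ± 0.26 for MSRB6 (adjusted p = 1.00). The MSRB6 arrays of atmyc2 (261.2 and 287) were below those of WT (436.8 and 499.2), and with only these 4 arrays in the fit the adjusted p was 0.00158. That smaller fit called 663 probe sets, higher and lower together, so MSRB6 was 1 of many there. The fit over all arrays, in which MSRB6 did not pass, called 6. These were 0.0185% of all probe sets higher and 0.0185% lower.

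In plants that carry cop1-6, adding atmyc2 also moved neither gene past the test. In darkness the double mutant minus cop1-6 was 0.62 ± 0.37 for ECS1 (adjusted p = 0.383; 1.3% of all probe sets were higher) and -0.60 ± 0.26 for MSRB6 (adjusted p = 0.22; 0.364% were lower). The arrays did not overlap for either gene, and the directions were opposite. In blue light the arrays overlapped for both genes, with differences of 0.51 for ECS1 (95% confidence interval -0.28 to 1.29, adjusted p = 0.935) and -0.07 for MSRB6 (95% confidence interval -0.61 to 0.47, adjusted p = 0.991), in a comparison where 0.00617% of all probe sets were higher and 0.0123% lower. With ABA the MSRB6 difference was 0.52 ± 0.26 (adjusted p = 0.517), and 0.22 to 0.83 when single arrays were left out. The interaction of both mutations with ABA was 1.23 ± 0.52 for ECS1 and 1.29 ± 0.36 for MSRB6, and neither passed the test. Leaving out single arrays gave 0.76 to 1.70 for ECS1 and 0.98 to 1.60 for MSRB6, the 1.60 being without cop1-6 replicate 1.

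Ordered by their means, the ECS1 groups ran from dark WT (0.9 ± 0.707, SD, n = 2) and dark atmyc2 to dark cop1-6 (315 ± 39.7), cop1-6 with ABA (440 ± 196), dark double mutant (488 ± 87.6), WT with ABA (869 ± 2.47), blue light cop1-6 (945 ± 411), atmyc2 with ABA (1075 ± 75.0), double mutant with ABA (1211 ± 54.2), blue light double mutant (1284 ± 172), blue light atmyc2 (1566 ± 80.3) and blue light WT (2392 ± 799). Arrays overlapped in 6 of the 11 pairs of neighbours and were separate in 5. The pairs without overlap were dark atmyc2 and dark cop1-6, the dark double mutant and WT with ABA, atmyc2 and the double mutant with ABA, the blue light double mutant and atmyc2, and blue light atmyc2 and WT.

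The MSRB6 order put all 4 dark groups lowest, WT before atmyc2, the double mutant and cop1-6. Blue light atmyc2 (232 ± 61.9, SD, n = 2), atmyc2 with ABA (274 ± 18.2) and blue light WT (284 ± 17.6) followed with overlapping arrays. Above them came WT with ABA (468 ± 44.1), the blue light double mutant (573 ± 28.5) and cop1-6 (603 ± 81.2), cop1-6 with ABA (1055 ± 313) and the double mutant with ABA (1483 ± 75.1). Arrays overlapped in 3 of 11 pairs of neighbours and were separate in 8. One of the separate pairs, dark WT and dark atmyc2, lies below the dim level, where the order is not reliable.

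Blue light WT was thus the highest group for ECS1, while 5 groups were higher for MSRB6. Over the 12 group means on the log2 scale the 2 genes correlated with r = 0.846, and over the 8 blue light groups with and without ABA with r = -0.554. These correlations describe groups on shared arrays, and the first is carried by the gap between dark and lit groups. In likeness of pattern MSRB6 was 758th to ECS1, and ECS1 1152nd to MSRB6, of 8820 probe sets with 1 gene.

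**Figure D4:**
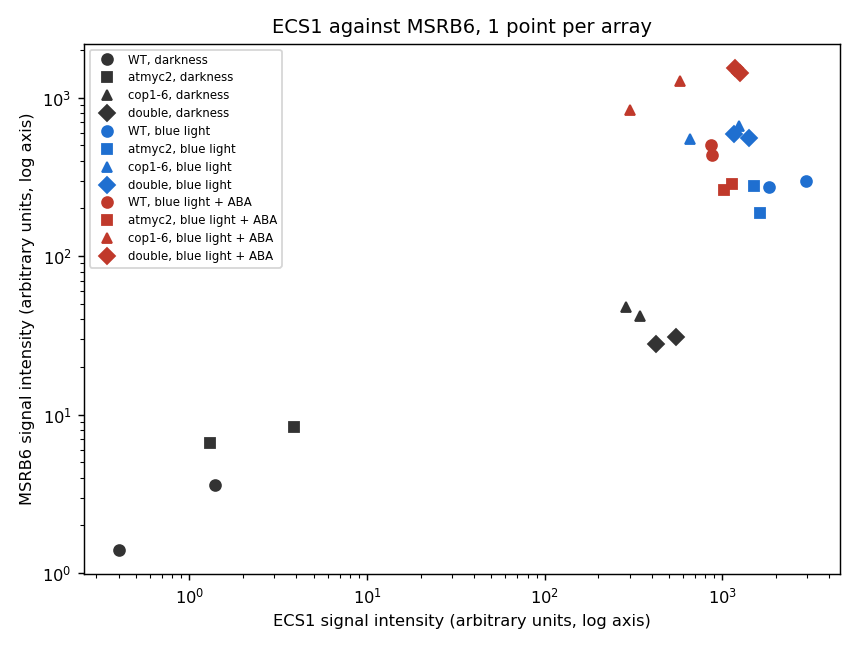
ECS1 against MSRB6 signal intensity (arbitrary units, log axes) on the 24 arrays, with colours for the growth condition and symbols for the genotype. The dark arrays form 2 groups split by the cop1-6 mutation, mainly along the ECS1 axis, and among the lit arrays the highest MSRB6 signals (1429.9 and 1536.1, double mutant with ABA) are not those with the highest ECS1 signals (2956.5 and 1826.7, WT in blue light).

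The 5 genes most like ECS1 over the 12 group means were PSAN, a subunit of photosystem I (r = 0.989), LIL3:2, a light-harvesting-like protein of chlorophyll synthesis (r = 0.988), AT1G49750 (r = 0.985), AT1G64500 (r = 0.985) and atpB, the beta subunit of the plastid ATP synthase (r = 0.985). Over the 8 lit groups alone their r fell to between 0.707 and 0.847. PSAN had mean signals of 40.8 in dark WT, 36.65 in dark atmyc2, 696 in dark cop1-6, 721 in the dark double mutant and 2450 in blue light WT. The dark groups with cop1-6 were thus at an intermediate level for PSAN, as for ECS1, a likeness for which PSAN was picked.

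The 5 genes most like MSRB6 were UGT78D2, a flavonoid glucosyltransferase (r = 0.981), AT1G73530 (r = 0.981), AT2G33250 (r = 0.980), AT2G36145 (r = 0.980) and AT5G50100 (r = 0.979). UGT78D2 kept r = 0.965 over the 8 lit groups, and the other 4 had 0.825 to 0.873. Its mean was 29.15 in dark WT, 128 in blue light WT, 199 in blue light cop1-6 and 269 in the double mutant with ABA. Like MSRB6, UGT78D2 was highest in the double mutant with ABA, but it was picked for its likeness over these same groups, so no test of it is given.

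Of 14 listed methionine sulfoxide reductase genes, 5 are paired with a probe set of 1 gene in the annotation used, including MSRB6. Genes without such a pairing here were not analysed, and the array may still measure them, since 8794 of its probe sets carry no gene in that annotation. The other 4 are MSRB5, MSRB3 and MSRB9 of the B type and MSRA5 of the A type, which reduces the S form of methionine sulfoxide. None of the 4 was near zero in darkness: MSRB5 was between 292.1 and 672.8 on the 8 dark arrays, MSRB9 between 298.8 and 712.8, MSRB3 between 47.1 and 127.4, and MSRA5 between 128.6 and 186.6. The light response of the 4 in atmyc2 was higher in 0 and lower in 3, with a median log2 fold change of -0.973 against 0.275 over all probe sets (34.4% of which were higher and 20.3% lower). In cop1-6 it was higher in 1 and lower in 2 (median -0.518 against 0.139), where 30.6% of all probe sets were higher and 23.5% lower. In the double mutant it was higher in 0 and lower in 1 (median -0.21 against 0.026), where 19.9% were higher and 19.4% lower.

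MSRA5 fell in blue light in all 3 mutants, by 0.49 to 0.59 on the log2 scale (log2 fold changes -0.49 in atmyc2, -0.57 in cop1-6 and -0.59 in the double mutant; adjusted p = 0.0394, 0.0201 and 0.0231). MSRB3 was 127.4 and 120.8 in dark atmyc2 and 41.8 and 45.4 in blue light atmyc2, a change of -1.49 ± 0.20 (adjusted p = 4.36e-06). Dark atmyc2 was its highest group, and the dark double mutant (54.1 and 47.1) was lower by a log2 difference of -1.28 ± 0.20 (adjusted p = 4.39e-05). MSRB9 was likewise highest in dark atmyc2 (693.9 and 712.8), and lower in the dark double mutant (322.6 and 298.8) by a log2 difference of -1.18 ± 0.31 (adjusted p = 0.00443). For MSRB6 the same comparison went up by 1.85.

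MSRB5, the nearest annotated gene to MSRB6 that has a probe set, rose with light in cop1-6, from 383.6 and 292.1 to 736.6 and 706.4 (1.11 ± 0.39, adjusted p = 0.0237). In atmyc2 its change was 0.24 (adjusted p = 0.625). Its replicates were far apart in the blue light double mutant (1385.8 and 541.7) and in cop1-6 with ABA (1589.9 and 564.3). With ABA the MSRB5 means were 628 in WT, 774 in atmyc2, 1077 in cop1-6 and 1576 in the double mutant. The double mutant with ABA was thus its highest group, as for MSRB6. Neither the ABA response of MSRB5 in the double mutant nor its difference there from atmyc2 was called. MSRB3, MSRB5 and MSRB6 are similar neighbouring genes on chromosome 4, and cross-hybridisation between their probe sets was not tested.

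**Figure D5:**
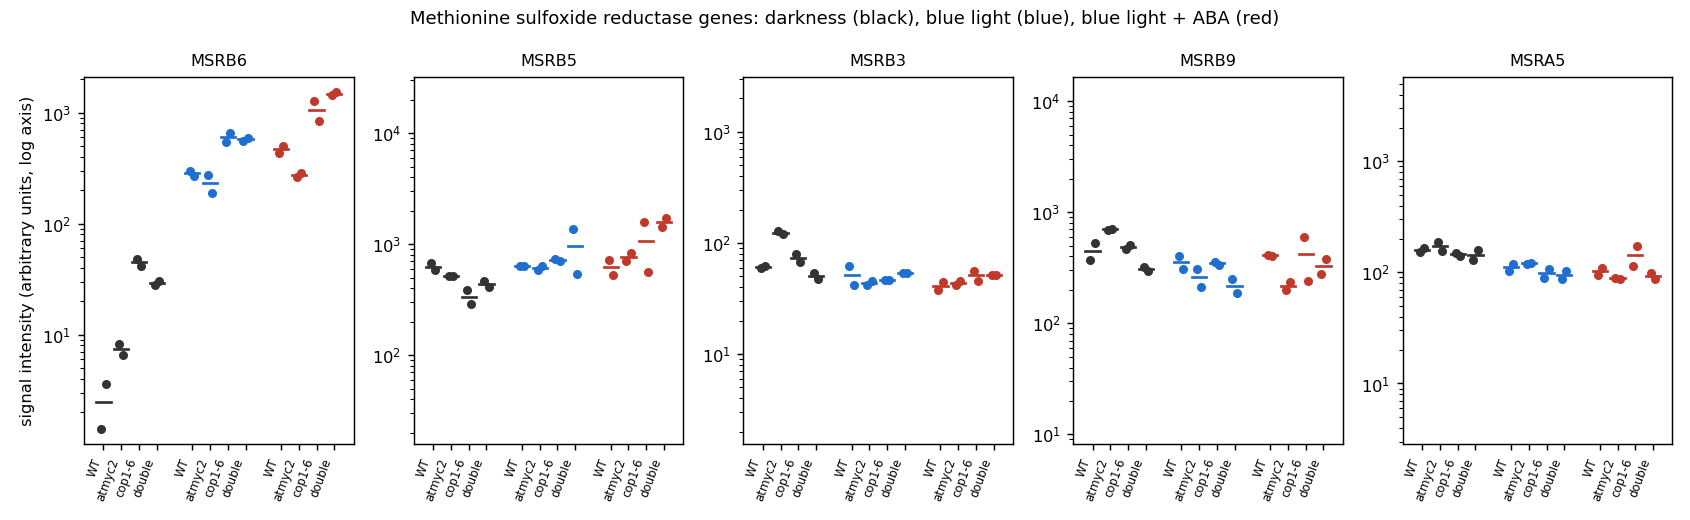
Signal intensity (arbitrary units, log axes of equal span but different range) of the 5 methionine sulfoxide reductase genes that have a probe set, on each array by genotype in darkness, blue light and blue light with ABA; points are arrays and bars are means of 2. MSRB6 runs from 1.4 to 1536.1 while MSRB3 stays between 37.6 and 127.4; signals of different probe sets are not comparable as levels.

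Of 18 listed genes of the thioredoxin system, 6 are paired with a probe set, and whether any of them serves MSRB6 was not tested. In light 4 were higher and 1 lower in atmyc2 (median log2 fold change 1.93), 4 higher and 1 lower in cop1-6 (median 1.14) and 5 higher and 1 lower in the double mutant (median 1.45). The medians over all probe sets were 0.275, 0.139 and 0.026, and the shares of all probe sets higher and lower were 34.4% and 20.3% in atmyc2, 30.6% and 23.5% in cop1-6, and 19.9% and 19.4% in the double mutant. TRXF2, an f-type plastid thioredoxin, rose by 2.85 ± 0.19 in atmyc2 (adjusted p = 8.88e-10), and NTRC, a plastid thioredoxin reductase, by 2.69 ± 0.27 (adjusted p = 1.6e-07). TY1, a y-type plastid thioredoxin, fell (log2 fold change -2.90 ± 0.25, adjusted p = 2.54e-08).

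Of 13 listed genes for secreted cell wall proteins, ECS1 is the only one paired with a probe set in the annotation used, so the other 12 were not analysed here. On the chromosome, the nearest genes with a probe set on one side of ECS1 are AT1G31550 and AT1G31540. AT1G31550 had means of 1.5 in dark WT, 2.9 in dark cop1-6, 7.15 in the dark double mutant and 26.45 in blue light WT, and its light response was 3.15 ± 0.35 in atmyc2 (adjusted p = 5.44e-07), or 1.03 with the dim level as pseudocount (adjusted p = 7.52e-04). It was below the dim level in darkness in all 4 genotypes, unlike ECS1, and it was raised by ABA in atmyc2 (1.78 ± 0.35, adjusted p = 0.00151) and in the double mutant (1.63 ± 0.35, adjusted p = 0.00255). Its highest mean was in the double mutant with ABA (209), as for MSRB6. AT1G31540 was below the dim level in 11 of the 12 groups, with means from 0.2 to 15.85, and had 21.8 in blue light cop1-6. AT1G31530, AT1G31620, AGL86 and AGL92 around ECS1 and AT4G04820 beside MSRB6 were too dim to be tested.

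On the far side of MSRB6 from MSRB5, the nearest genes with a probe set are DER2.2, a derlin, AT4G04880 and AT4G04940. In blue light in atmyc2 DER2.2 fell (log2 fold change -1.47 ± 0.19, adjusted p = 3.88e-06) and AT4G04880 rose (1.53 ± 0.19, adjusted p = 1.84e-06). AT4G04940 had a change of -0.26 ± 0.21 (adjusted p = 0.323). The neighbours of MSRB6 thus moved in both directions where MSRB6 rose by 4.76.

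Few of the listed marker genes are paired with a probe set in the annotation used, so the tissue and growth labels could be checked on single genes only. HYH, a bZIP transcription factor degraded through COP1 and the only one of 13 listed light-raised genes so paired, had means of 1.9 in dark WT, 0.4 in dark atmyc2, 13.5 in dark cop1-6 and 17.95 in the dark double mutant, all below the dim level, against 59.1 to 124.8 in blue light. PYK10, a beta-glucosidase of roots and the only one of 5 listed root genes so paired, was between 2449 and 6775 on all arrays, with the 2 highest values in dark WT. Its light response in atmyc2 was -0.54 ± 0.14 (adjusted p = 0.00264). The part of organ proportions in the results was not tested, and the 4 listed epidermis and guard cell genes, none of them so paired, were not analysed here.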

How the data were processed

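The authors deposited 1 table of intensity values, arrays in columns and probe sets in rows, from GCOS 1.4 per the submitters' processing notes. Each hybridisation started from 5 µg of total RNA per the labels' protocols. ECS1, MSRB6 and all gene lists were chosen with earlier results of these data known. Signals were taken as log2(signal + 1) without further normalization, because each array's mean after trimming 2% from either end was equal between arrays. The 64 control probe sets were left out, and of the remaining 22746 those whose highest group mean reached the 40th percentile were tested, 16196 in all. A limma 3.58.1 fit in R 4.3.3 of 12 group means, with a trended and robust prior, gave fold changes, SE and Benjamini-Hochberg adjusted p-values. Probe sets were named through the platform annotation, which gives 13513 of them 1 gene, 503 several and 8794 none. Gene names were updated through TAIR10.1 for 13436. The deposited table names no genome build, so TAIR10.1 served only for names and gene order and no coordinates are given. Named genes were the measured members of the reductase and cell wall lists, up to 3 called members of each other list, the 5 probe sets most like each gene by Pearson r, and the 3 nearest genes with a probe set on each side. The number of arrays limits precision, and p-values measure the spread between these samples, which may in part be technical. The fit was tested on simulated data whose base signals lay above the dim level. Its behaviour for groups below that level was not tested. Alternatives were another pseudocount, stricter and no filters, quantile normalization, plain moderation, a replicate block, fits on the compared groups only, and leaving out each array.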

Additional observations from a re-analysis of the deposited data

Results flagged for a closer look

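The light response, blue light minus darkness, differed between the double mutant and atmyc2 in an interaction test (limma, adjusted p under 0.05) for ECS1, with a log2 difference, double mutant minus atmyc2, of -7.47. For ECS1 this mostly restates the dark difference between the same genotypes (7.17). The same interaction test also passed for 13 of 28 other genes tested from the lists, the neighbours and the genes of like pattern, 10 lower and 3 higher, where 19.1% of all probe sets were lower and 8.41% higher. The lower ones were PSAN (-4.07), AT1G64500 (-3.39), HYH (-2.79), LIL3:2 (-2.32), AT1G49750 (-2.13), atpB (-1.44), AT2G33250 (-1.42), AT2G36145 (-1.32), TRXF2 (-1.18) and ty2 (-0.85). The higher ones were ICL (2.87), TY1 (2.02) and MSRB3 (1.59). With the dim level of 19.1 as pseudocount, 9 of the 13 still passed with the same sign. The exceptions were HYH (-0.12, adjusted p = 0.77) and AT2G36145 (0.28, adjusted p = 0.319), whose dark group means were all below the dim level and whose differences therefore have no settled size or direction, AT2G33250 (-0.66, adjusted p = 0.0722) and ICL (1.84, adjusted p = 0.0673). The genes like ECS1 and MSRB6 were named for the likeness of their group means over these same arrays, so their values are no independent result. Of the 13, PSAN, AT1G64500, LIL3:2, AT1G49750, atpB, AT2G33250 and AT2G36145 were named in this way. The count of 13 of 28 therefore cannot be weighed against the shares of all probe sets.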

How the results depend on the processing

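Of 496 values of ECS1 and MSRB6 under the alternatives, 465 kept their direction and their side of the threshold, 16 newly passed it, 7 no longer passed it and 8 changed sign. With the dim level as pseudocount, cop1-6 passed for ABA minus blue light for ECS1 (-1.07) and MSRB6 (0.76) and for cop1-6 minus WT with ABA for ECS1 (-1.02). The double mutant minus cop1-6 with ABA passed for ECS1 (1.49), as did the ABA response of the double mutant minus atmyc2 for MSRB6 (1.1), and the MSRB6 light response of the double mutant minus atmyc2 turned to 0.39. With quantile normalization, ABA minus blue light in cop1-6 passed for ECS1 (-1.18) and MSRB6 (0.86), and with a filter at the 60th percentile for MSRB6 (0.78). In fits on the compared groups only, ECS1 passed in atmyc2 for ABA minus blue light (-0.54) and MSRB6 for atmyc2 minus WT with ABA (-0.77), and MSRB6 no longer passed for cop1-6 minus WT with ABA (1.14). The cause was not tested. Leaving out each array gave ranges, with call changes inside them, of 1.06 to 1.97 for ECS1 light in cop1-6, 1.22 to 1.58 for ECS1 light in the double mutant, -1.57 to -0.64 and 0.47 to 1.09 for ABA in cop1-6 (ECS1, MSRB6), and 1.05 to 1.60 for MSRB6 in the double mutant minus atmyc2 in blue light. With ABA they were 1.06 to 2.00 for ECS1 in the double mutant minus cop1-6, -1.52 to -0.59 and 0.84 to 1.45 for cop1-6 minus WT (ECS1, MSRB6), and 0.98 to 1.60 for the MSRB6 interaction of both mutations. That interaction was 1.60 without cop1-6 ABA replicate 1. Signs changed for the ECS1 light response of the double mutant minus cop1-6 (-0.57 to 0.34), MSRB6 with ABA in atmyc2 (-0.0084 to 0.54), MSRB6 in the double mutant minus cop1-6 in blue light (-0.21 to 0.069) and ECS1 with ABA in the double mutant (-0.215 to 0.0585). The replicate block changed no call of either gene (ECS1 light in cop1-6 stayed at 1.51). Over 66 pairs of groups, same-numbered arrays correlated in their deviations with r from -0.155 to 0.306, over 0.1 in 8. The labels give no batch, so whether same-numbered arrays of some groups share a preparation cannot be told. Counts over all probe sets moved by over 1.5 times in 79 of 248 cases. In fits on the compared groups only, ABA minus blue light called 5904 in atmyc2 against 3532 and 19 in cop1-6 against 2178, and the double mutant minus atmyc2 called 4014 with ABA against 767 and 499 in blue light against 1563. With ABA such fits called 663 for atmyc2 minus WT against 6, and 0 for cop1-6 minus WT against 785. Without single arrays, cop1-6 minus WT with ABA called 156 to 1721, and the double mutant minus cop1-6 called 9 to 1454 in darkness against 270 and 11 to 1438 with ABA against 41. Quantile normalization shifted the median of all probe sets by -0.28 for light in atmyc2 (62.9% of calls higher became 50.5%), by -0.16 in cop1-6, -0.11 in the double mutant, -0.14 for the double mutant minus atmyc2 in darkness and 0.14 for their light response difference, with no change in a call of ECS1 or MSRB6 in these comparisons. The number of arrays and signals near the dim level limit the dark folds.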
